A study of Catostomus macrocheilus with 21 samples.

Results

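The groups compared here are 8 fish with a high and 7 fish with a low liver signal of 1 array probe, LSS_UF_10838, among 21 wild Catostomus macrocheilus, the largescale sucker, which feeds on river beds. All were labelled as reproductive adults, they were caught at 3 places along the Columbia River, and each 1-colour Agilent array held liver RNA of 1 fish. The study asked how expression in the liver relates to exposure to contaminants. A level is the log2 processed signal of a probe minus the 75th percentile of its array, so 0 is that percentile. Fish over 7 in LSS_UF_10838 are called high fish, fish under -0.6 are called low fish, and the 6 fish between were left out. The high fish were 2 of 6 from Columbia City, 1 of 7 from Longview and 5 of 8 from Skamania, and the low fish were 4 from Columbia City and 3 from Skamania. All 6 fish left out came from Longview. No label gives a treatment, sex or size. The groups were thus chosen by a measured value, the level of LSS_UF_10838, and not by a label, and the probe was chosen with results of these data known.

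The liver of an egg-laying fish makes most blood plasma proteins, handles lipid and clears foreign compounds. In breeding females it also makes egg yolk precursors and egg envelope proteins in response to oestrogen, so liver transcripts are known to differ between the sexes of many fish in the breeding season. Sex is a possible reading of high and low fish, but it was not tested: no label gives it, and the files pair probes with sequence names from an assembly and not with genes. Probes are therefore described by name, level and brightness alone, and neither their genes nor liver markers could be checked.

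LSS_UF_10838, was at 7.39, 8.06 and 8.37 (lowest, median and highest) in the 8 high fish. In the 7 low fish it was at -5.37, -3.37 and -1.32. These values chose the groups, so they are a description with no test. Mean levels were 7.98 ± 0.37 (SD, n = 8) in high and -3.26 ± 1.24 (SD, n = 7) in low fish, a difference of 11.24 on the log2 scale. In units of processed signal the probe read between 55957 and 143685 in high fish and between 11.8 and 404 in low fish. It was well above background, a call of the scanner software, in all 8 high fish and in 6 of 7 low fish. Just inside the thresholds stood Columbia City replicate 1 at 7.39 and Skamania replicate 4 at -1.32. Just outside stood Longview replicate 4 at 6.54 and Longview replicate 6 at 0.16. At Columbia City and Skamania no fish lay between the thresholds, whereas at Longview 6 of 7 did.

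**Figure D1:**
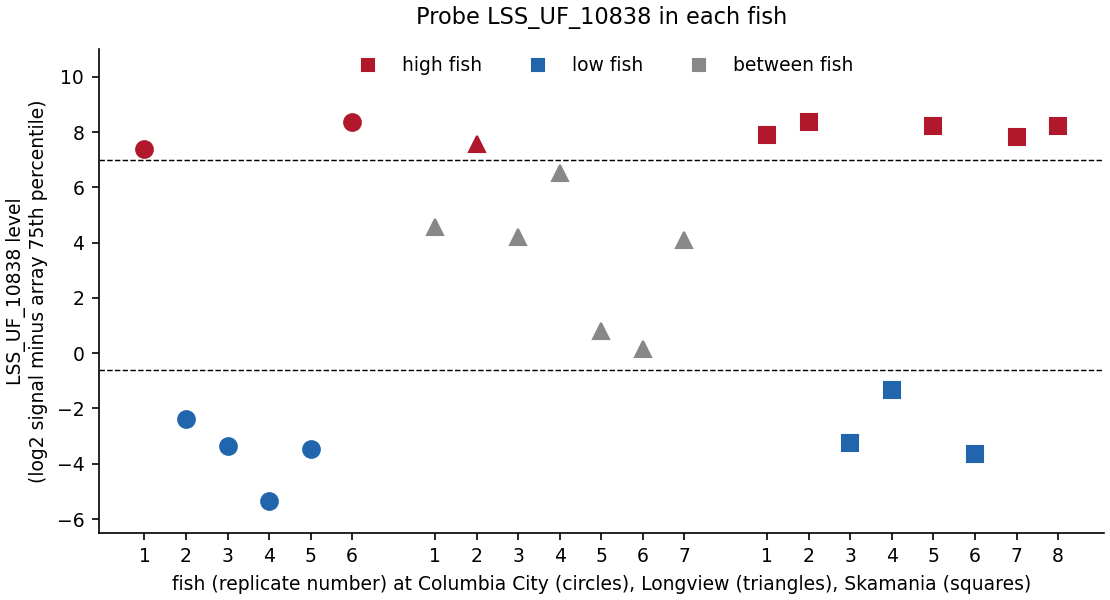
Level of LSS_UF_10838 (log2 signal minus the 75th percentile of the array, vertical axis) in each of 21 fish, by site and replicate number, with dashed lines at the thresholds of 7 and -0.6. The 8 high fish lie between 7.39 and 8.37 and the 7 low fish between -5.37 and -1.32, while the 6 fish between are all from Longview.

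Array brightness moved with the groups. The log2 75th percentile was 8.51 ± 0.23 (SD, n = 8) in high fish and 9.03 ± 0.57 (SD, n = 7) in low fish, and the difference within sites was -0.68. It was -0.14 at Columbia City and -1.07 at Skamania, and -0.51 over all fish without regard to site. Levels of LSS_UF_10838 were set relative to this percentile, so these values are a description with no test. The summed signal of an array lay between 22238400 and 31099800 units in high fish and between 32309100 and 59225900 units in low fish, with no overlap. The dim spike-in probe E1A_r60_a104, which measures no fish transcript, was at a log2 signal of 4.67 ± 0.51 (SD, n = 8) in high fish and 3.92 ± 0.17 (SD, n = 7) in low fish, a difference within sites of 0.70 (exact permutation within sites, two-sided p = 0.00119, the smallest the design allows, adjusted 0.00714 over 6 measures). In the 6 Longview fish between, E1A_r60_a104 was at 4.84 to 5.39, and in Longview replicate 2, the highest of the high fish, at 5.51. E1A_r60_a104 had the largest difference of the E1A spike-in probes. The others differed by 0.21 to 0.47, except E1A_r60_3, which went the other way at -0.48. ETG10_234183, another control among the 6 measures, differed by 0.30 (exact permutation p = 0.414, adjusted 0.497), with 0.97 at Columbia City and -0.18 at Skamania. The negative control probe differed by 0.01 (exact permutation p = 0.945, adjusted 0.945). High fish had 9404 ± 705 (SD, n = 8) probes well above background and low fish 10055 ± 675 (SD, n = 7), a difference within sites of -823 (exact permutation p = 0.0583, adjusted 0.117). It was -60 at Columbia City and -1366 at Skamania. The percent of summed signal in the 100 brightest probes differed within sites by 3.85, with -2.64 at Columbia City and 8.47 at Skamania. LSS_UF_10838 was not left out of that measure, so its values are a description with no test. The adjustment over 6 measures still counts it and the 75th percentile. By limma with site as a covariate, 10 of 60 control probes were called before scaling and 50 of 60 after it. Before scaling, ETG09_48764 (-1.94) and GE_BrightCorner (-0.63) were called lower in high fish, and the other called controls were higher. Of the 11040 fish probes tested, 4661 were called before scaling and 1785 after it. Scaling adds the same 0.68 to the difference of every control probe. The 50 thus follow in part from the 75th percentile, and nothing is read from them. The part of array brightness and of control spots in the results below was tested only by the alternatives given beside them.

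High and low fish differed in 1785 of the 11040 probes tested, or 16.2%, of which 858 (7.77%) were higher in high fish and 927 (8.4%) were lower. In whole liver RNA, fewer cells of a type and less RNA per cell cannot be told apart. Probes entered the test with a well-above-background call on 6 or more of 21 arrays, and a probe is called if its difference, with site as a covariate, had a limma adjusted p under 0.05. Since the groups were set by a probe of the same arrays, these counts describe which probes moved with LSS_UF_10838, and nothing is read from their number. With site in the fit, the single Longview fish sets only the Longview mean. The differences thus rest on 7 high and 7 low fish from Columbia City and Skamania, and the count was also 1785 without the Longview fish. Differences of the higher probes were at least 0.46 (log2), with a median of 1.56 and a median SE of 0.31. Those of the lower probes ran from -6.32 to -0.44, with a median of -1.15 and a median SE of 0.29. Over all probes tested the median was -0.06.

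LSS_UF_10838 itself, with a fitted difference of 11.13, is among the 858, and the next largest difference was 10.07. Some called probes had no array well above background in the dimmer group, so that they were tested only through the brighter group and allow no more than a bound on the fold. For these a bound over 1-fold could be given for 52 higher and 40 lower probes, where it had medians of at least 2.78-fold and at least 1.39-fold, and for the other 52 and 20 no fold is given. In a bound, each array of the dimmer group counts with the lowest signal among its probes well above background, or with the probe's own signal where that is higher. Without LSS_UF_10838 and without all probes of this kind, 753 higher and 867 lower probes were left. Of the 753, 264 differed over 4-fold, 68 over 16-fold and 17 over 64-fold, and of the 867, 85, 7 and 1 did. High and low fish had separate ranges in 598 of all probes tested (5.42%), 370 (3.35%) with high fish above and 228 (2.07%) with high fish below. Of these, 366 were among the 858 higher and 219 among the 927 lower probes.

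Scaling changed the balance of the directions. Before scaling, the median difference of all probes was -0.75, and 370 probes were called higher and 4291 lower, so that 7.94% of the calls were higher against 48.1% after scaling to the 75th percentile. Leaving the scaling out moves every difference by the same -0.68, so that higher probes must shrink and lower probes must grow. Of the 858 higher probes, 809 stayed above 0 and 370 were still called. Under the 5 scalings (75th percentile, median, quantile, normexp and the authors' deposited values), 697 of the higher and 680 of the lower probes were called every time. With no scaling as the sixth setting these counts were 343 and 680. With array brightness as a covariate, chosen after seeing the data, 870 probes were called, 470 of them higher, and all 1785 differences kept their sign. With E1A_r60_a104 as a covariate, chosen likewise, 263 were called and 1777 kept their sign. That probe does not overlap between high and low fish, so as a covariate it also takes up part of any difference between them. With the control ETG10_234183 as a covariate instead, also chosen after seeing the data, 1445 were called and all 1785 kept their sign. ETG10_234183 differed by 0.30 within sites, with opposite signs at the 2 sites. As a covariate it could thus take up little of a difference between the groups, and nothing is read from that count. Keeping the sign is partly built in under each covariate, since the same fish made the calls.

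**Figure D2:**
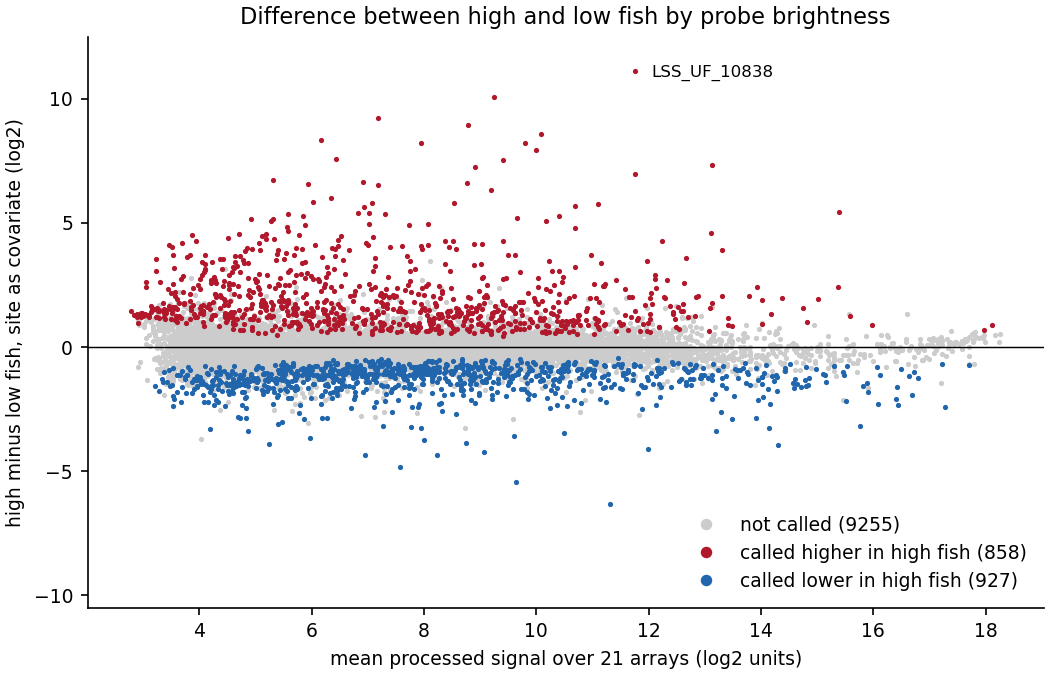
Difference between high and low fish (log2, vertical axis, site as covariate) against mean processed signal over 21 arrays (log2 units) for the 11040 probes tested, with 858 called higher in red and 927 called lower in blue. LSS_UF_10838, which set the groups, is labelled at 11.13, the other higher probes reach 10.07, and the lower probes reach -6.32.

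The 10 probes with the largest difference among called probes that were well above background in every high fish, and whose groups did not overlap, included LSS_UF_10838 itself. Next came LSS_UF_14073, at 4.65, 5.28 and 5.88 (lowest, median and highest) in high fish and -5.94, -4.79 and -3.84 in low fish. All 8 high fish lay more than 8 log2 units above the highest low fish, and the difference was 10.07 with an SE of 0.32. In low fish 4 of 7 arrays were well above background. LSS_UF_21478 was at 3.65, 4.48 and 5.09 in high fish and -4.79, -4.20 and -3.99 in low fish. It had the smallest SE of the 10, 0.23, beside a difference of 8.96, and 5 of 7 low fish were well above background. LSS_UF_11171 was at 4.83, 5.65 and 6.21 in high fish against -3.79, -2.66 and -1.67 in low fish, 7 of 7 of them well above background, and differed by 8.57 with an SE of 0.27. LSS_UF_18197 ran from 4.41 to 5.95 in high fish and from -3.74 to -1.67 in low fish, and LSS_UF_16828 from 4.21 to 6.18 and from -3.33 to -1.95. Both were also well above background in all 15 fish, with differences of 8.23 and 7.96. LSS_UF_14073, LSS_UF_21478, LSS_UF_11171 and LSS_UF_16828 were among the 5 probes whose levels over all 21 fish correlated best with LSS_UF_10838. The remaining one, LSS_UF_24063, was much dimmer, at -2.08 to -1.22 in high fish and -5.33 to -4.24 in low fish. The groups are the 2 ends of LSS_UF_10838, so probes with widely separate groups must correlate with it. Nothing is read from this overlap.

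LSS_UF_15167 and LSS_UF_13540 were not well above background in any low fish. LSS_UF_15167 was at 0.35, 1.85 and 2.38 in high fish, a mean at least 99.3-fold above the bound in low fish. For LSS_UF_13540, at 0.33, 1.47 and 1.92 in high fish, the bound was at least 77.3-fold. No sampling error was computed for these bounds, which vary with the fish sampled, and they apply to this scaling. The last pair among the 10 was uneven within groups. Each of the 2 probes was well above background in only 2 of 7 low fish, so their other low-fish levels are near background. LSS_UF_16131 was at -0.48 in Columbia City replicate 5, against -7.20 to -5.00 in the other 6 low fish, and at 1.95 to 5.16 in high fish. LSS_UF_11366 was at 0.21 in the same fish and at -7.54 to -4.14 in the other low fish, with 0.85 to 4.84 in high fish. Columbia City replicate 5 was thus nearest to the high fish in both, and their SEs, 0.96 and 1.05, were the largest of the 10.

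Among lower probes, 10 were chosen in the same way. Those of them well above background in any high fish differed by -3.87 to -2.88. LSS_UF_21081 was at -3.49, -2.99 and 0.07 in high fish and 1.27, 1.49 and 2.66 in low fish, a difference of -3.87 with an SE of 0.51. LSS_UF_21082 was at -4.59, -3.43 and -0.57 in high fish and -0.08, 0.83 and 2.18 in low fish, a difference of -3.73 with an SE of 0.58. Skamania replicate 8 was the highest of the high fish in both, at 0.07 and -0.57, and Skamania replicate 2 the next. LSS_UF_11587, a bright probe, was at 2.18, 3.28 and 4.76 in high fish and 5.61, 6.92 and 7.41 in low fish, a difference of -3.24 with an SE of 0.36. LSS_UF_13399 was at 0.84, 1.91 and 3.88 in high fish and 4.26, 5.79 and 7.77 in low fish, a difference of -3.37 with an SE of 0.62. LSS_UF_24091 was at 0.87 to 4.70 in high fish and 5.43 to 6.29 in low fish, where the spread was narrow. LSS_UF_16426 ran from -3.61 to -1.26 in high fish and from -1.15 to 0.79 in low fish, so that the groups nearly met. LSS_UF_16372 ran from -5.64 to -3.50 and from -2.46 to -1.02, and was well above background in 2 of 8 high fish. LSS_UF_16755 and LSS_UF_20251 were well above background in no high fish and in all 7 low fish, with low-fish means at least 5.76-fold and at least 3.90-fold above the bound.

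LSS_UF_13900 and LSS_UF_13901 carry 1 sequence name with different suffixes, and were the only pair among the probes tested that did. Both were lower in high fish. LSS_UF_13900 was at -1.80, -0.70 and 0.79 in high fish and 1.12, 3.26 and 4.33 in low fish, a difference of -3.45 with an SE of 0.49. LSS_UF_13901 was at 5.71, 6.86 and 8.14 in high fish and 7.97, 9.70 and 10.25 in low fish, a difference of -2.40 with an SE of 0.43. In the second probe Skamania replicate 7, a high fish, lay above Skamania replicate 3, a low fish.

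**Figure D3:**
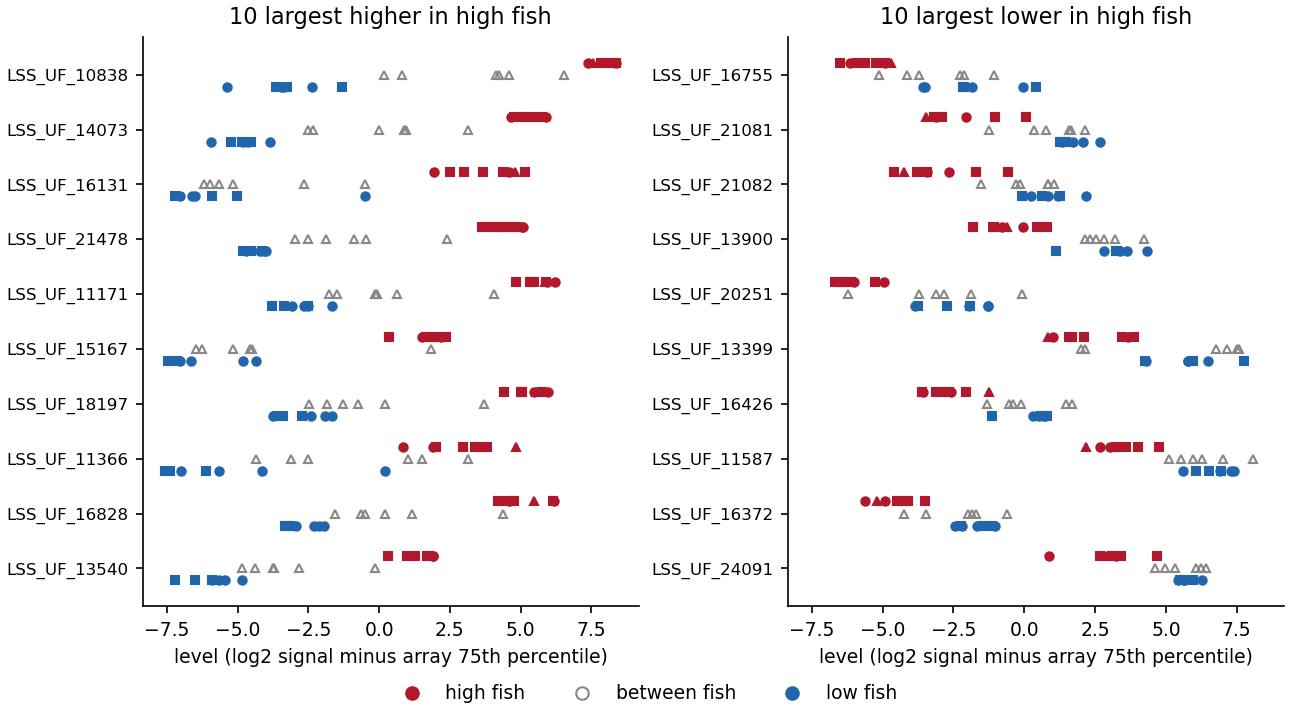
Levels (log2 signal minus the 75th percentile of the array, horizontal axis) of the 10 largest higher and the 10 largest lower probes in high fish (red), low fish (blue) and the 6 Longview fish between (open grey); circles are Columbia City, triangles Longview and squares Skamania. The gap between groups is wide for LSS_UF_14073 and LSS_UF_21478, whereas the groups nearly meet at -1.26 and -1.15 in LSS_UF_16426.

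The 5 brightest called probes of each direction differed by -2.40 to 5.45. LSS_UF_13901 was the brightest of the lower probes, and the next, LSS_UF_13494, was at 8.01, 8.38 and 8.81 in high fish and 8.58, 9.24 and 9.67 in low fish, a difference of -0.72 with an SE of 0.20. LSS_UF_22353 was at 8.11 to 9.12 in low fish and 5.48 to 7.78 in 7 high fish, with the remaining one, Longview replicate 2, at 0.52. LSS_UF_11818 was lowest in the same fish, at 3.80, against 5.33 to 8.06 in the other high fish and 7.91 to 9.44 in low fish. LSS_UF_11242 differed by -0.69 with an SE of 0.22, its groups overlapped, and it was called under 3 of 6 scalings. Its call was also lost when most single fish were left out. Among bright higher probes, LSS_UF_17703 was at 7.55, 7.94 and 8.18 in high fish and at most 6.19, with a median of 5.68, in low fish, a difference of 2.42 with an SE of 0.22. LSS_UF_10418 was at 8.34, 9.05 and 9.44 in high fish and 0.24, 4.56 and 7.21 in low fish, so low fish were spread far more widely than high fish. Its difference of 5.45, with an SE of 1.05, was no longer called with E1A_r60_a104 as a covariate (5.51, SE 1.75), with array brightness as one (4.29, SE 1.48), or within Columbia City (3.87, SE 1.68). LSS_UF_13211, LSS_UF_17646 and LSS_UF_13327 differed by 0.90, 0.89 and 0.69. Before scaling these 3 differed by 0.21, 0.20 and 0.0046 and were not called, so their calls depend on the scaling.

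Of the 43 tested probes that were printed 10 times on each array, 10 were called (23.3%, beside 16.2% of all probes tested), 6 higher and 4 lower. The median SD among the spots of an array was between 0.07 and 0.28 log2 units for these 10, and the smallest difference was 0.61. LSS_UF_REP_20042 was at 0.02, 0.81 and 1.58 in high fish and -2.39, -1.52 and -0.59 in low fish, a difference of 2.45 with an SE of 0.32. LSS_UF_REP_20021 was at 1.69 to 4.61 in high fish. In low fish it was at -2.06 to 1.03 except in Skamania replicate 4, which stood at 3.75 among the high fish. LSS_UF_REP_20007 was at -2.08 to 0.37 in 7 high fish and at -3.98 in Columbia City replicate 1, within the range of -4.83 to -2.64 of low fish. The lower probes LSS_UF_REP_20001, LSS_UF_REP_20048 and LSS_UF_REP_20046 differed by -1.24, -1.07 and -0.73, and their groups overlapped.

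LSS_UF_11822 and LSS_UF_24050 were described because earlier results of these data had drawn attention to them. LSS_UF_11822 was low in all 8 high fish, at -2.90 to 0.42. Low fish were split: the 4 from Columbia City lay between 7.29 and 8.87, while those from Skamania stood at 2.83 in replicate 3, -1.96 in replicate 4 and 7.11 in replicate 6. The difference was -6.32 with an SE of 1.31, the largest among lower probes, with -9.85 at Columbia City and -3.80 at Skamania. Adding E1A_r60_a104 to the fit ended the call, at -3.96 with an SE of 2.02 for LSS_UF_11822. LSS_UF_24050 was not called, with a difference of 0.06 and an SE of 0.79. It was at 3.56 to 7.23 in high fish and at 6.17 to 7.62 in low fish, apart from Skamania replicate 6 at 1.90. Without that fish LSS_UF_24050 differed by -1.07 with an SE of 0.28 and was called lower.

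The difference was also taken within each site. At Columbia City, with 2 high and 4 low fish, 223 probes were called, and at Skamania, with 5 high and 3 low, 597 were. All 1785 called probes had the same sign at both sites, which the joint fit favours since it averages them. Probes called at 1 site were therefore set against fish of the other site, which share no fish with them. LSS_UF_10838, which set the groups at both sites, was not left out of these lists. Nor were probes with no array well above background in the dimmer group. The shares below are thus a description and no test. Of 395 probes called higher at Skamania, 391 (99.0%) were higher at Columbia City, with a median log2 difference there of 2.18, against 48.0% and -0.04 over all probes tested. Of 202 called lower at Skamania, 189 (93.6%) were lower at Columbia City, with a median of -1.14, against 52.0% of all probes. In the other direction, 161 of 161 probes called higher and 60 of 62 called lower at Columbia City had the same sign at Skamania, with medians of 3.36 and -1.52. Over all probes tested, 45.1% were higher and 54.9% lower at Skamania, with a median of -0.07. The number called higher at both sites was 136, or 84.5% of the Columbia City list and 34.4% of the Skamania list. Those called lower at both were 15, or 24.2% and 7.43%. Across the 11040 probes, which are not independent, the differences at the 2 sites correlated with Pearson's r = 0.709. Both sites share the slides and the probe that set the groups.

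The dependence of the difference on the site was tested directly, since the rule for high and low fish did not use it. By limma 0 of 11040 probes (0%) had an interaction of group and site at an adjusted p under 0.05, and 541 had an unadjusted p under 0.05. The smallest adjusted p was 0.986. This test rested on 2 high and 4 low fish at Columbia City and 5 and 3 at Skamania. With so few fish, the count of 0 does not show that the differences were equal at both sites. For LSS_UF_11822 the difference at Skamania was 6.05 log2 units from that at Columbia City, with an SE of 2.20 (limma adjusted p = 0.986).

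**Figure D4:**
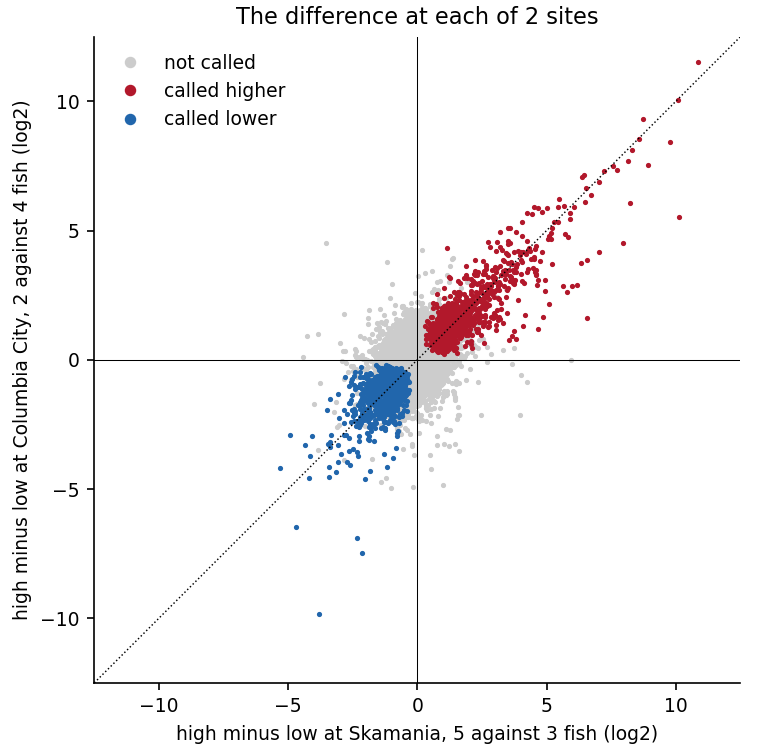
High minus low fish at Skamania (log2, horizontal axis, 5 against 3 fish) and at Columbia City (vertical axis, 2 against 4 fish) for the 11040 probes tested. All 1785 called probes have the same sign at both sites, and the dotted line marks equal differences.

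Each slide held both groups. Within slides 1, 2 and 3, with site left out of the fit, 17, 295 and 806 probes were called. Of the 1785, 1766, 1784 and 1783 kept their sign, which is partly built in since the same fish made the calls. With site and slide as fixed blocks the count was 1901.

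Longview fish did not enter the difference with site as a covariate, which made the 1785 calls, although their arrays counted in the filter on dim probes and Longview replicate 2 entered the fit within slide 2. Longview replicate 2, the high fish, lay nearer the mean of the high than of the low fish of the other sites for 818 of the 858 higher probes (95.4%). For the lower probes this was so for 827 of 927 (89.2%). In the 6 Longview fish between, these shares were 26.3% to 67.3% of the higher and 23.4% to 56.9% of the lower probes. The share over all probes tested is not given here. The fish between were graded in LSS_UF_10838 but stood mostly near the low fish elsewhere. On a scale where 0 is the mean of low and 1 the mean of high fish at the other 2 sites, the median position over the 309 higher probes past 4-fold, LSS_UF_10838 among them, was 1.06 for replicate 2. It was 0.69 for replicate 4, whose LSS_UF_10838 level of 6.54 lay just outside the threshold. Replicates 1, 3 and 7, at 4.57, 4.22 and 4.11 in LSS_UF_10838, had positions of 0.25, 0.18 and 0.19. Replicates 5 and 6, at 0.80 and 0.16, had positions of 0.12 and 0.22. Over the 93 lower probes past 4-fold, replicate 2 stood at 1.22, replicate 4 at 0.66 and the other 5 between -0.12 and 0.30.

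Probes differed in where the fish between stood. LSS_UF_14073 was at 3.14 in replicate 4, at 0.01 to 0.94 in replicates 1, 3 and 7, and at -2.33 and -2.50 in replicates 5 and 6. It was chosen for its correlation with LSS_UF_10838 over fish that include these 6, so nothing is read from that order. LSS_UF_15167 was at 1.85 in replicate 4, the same as the median of high fish, and at -6.47 to -4.51 in the other 5. LSS_UF_13399 was at 2.02 in replicate 4 and 2.14 in replicate 7, within the range of high fish, and at 6.75 to 7.59 in the other 4. A difference between Longview and the other sites cannot be told apart from a difference between these fish and the high and low groups, since the fish between are all from Longview.

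**Figure D5:**
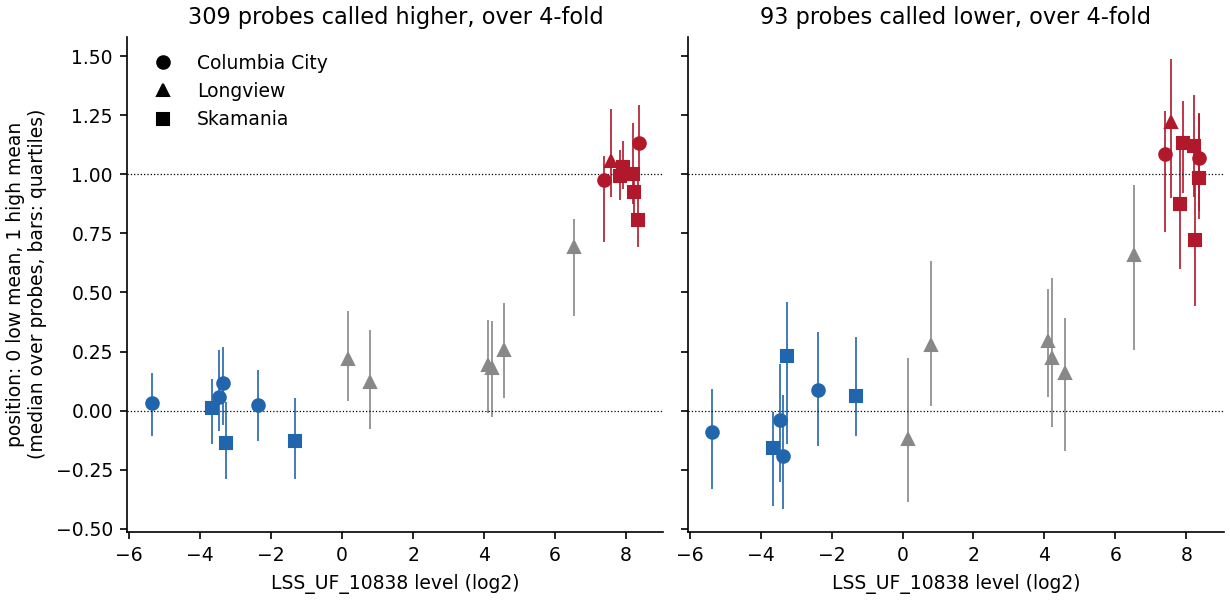
Median position of each fish (0 is the mean of low fish, 1 the mean of high fish at Columbia City and Skamania; bars are quartiles over probes) against its LSS_UF_10838 level (log2), over 309 higher and 93 lower probes past 4-fold. Columbia City and Skamania fish define the scale; among Longview fish (triangles) replicate 4 stands at 0.69 and 0.66, replicate 2 past 1, and the other 5 at or below 0.30.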

How the data were processed

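Liver RNA of 21 fish was measured on 1-colour arrays, 1 array per fish. Scans were read with Agilent Feature Extraction, version 9.1 per the submitters' processing notes and 10.1.1.1 per the file headers. The intensity of each spot, on a linear scale, and its flags of 0 or 1 (well above background, outlier, saturated) were deposited by the authors. Their own log2 values, also deposited, served as an alternative. Spots of 1 probe were averaged as log2 processed signal, without 555 outlier spots of 319368, and each array was scaled to its 75th percentile. No spot was saturated. Of 14758 probes, 11040 were well above background on at least 6 arrays. limma 3.58.1 in R 4.3.3 compared 8 high with 7 low fish with site as a covariate and 11 residual degrees of freedom, two-sided, with Benjamini-Hochberg adjustment across the 11040. The fit was tested on simulated data. Figures were drawn with matplotlib 3.10.9. Array measures were compared by exact permutation of the groups within sites over 840 arrangements.

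Probes named are LSS_UF_10838, the 10 largest called in each direction with separate groups and a brighter group well above background throughout, the 5 brightest called each way, the 3 largest each way among those printed 10 times, LSS_UF_11822, LSS_UF_24050 and the 5 best correlated with LSS_UF_10838. No other probe shared the assembly group of LSS_UF_10838. The groups, probes and lists were chosen with earlier results of these data known. Fish are the replicates, and the number of arrays limits the precision. Alternatives covered scaling, background, filters, covariates, blocks, thresholds and leaving out each fish. Gene names and sequences were not used here, so lists of genes and cell type markers could not be applied.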

Additional observations from a re-analysis of the deposited data

Results flagged for a closer look

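In 90 groups of values, those of the named probes and of 6 array measures in high and in low fish, 5 held a fish far from the others of its group, where chance alone gives about 1 in 20. LSS_UF_15167 was at 0.35 in Skamania replicate 2, against 1.51 to 2.38 in the other high fish. LSS_UF_22353 was at 0.52 in Longview replicate 2, the only Longview fish among the high fish, against 5.48 to 7.78. LSS_UF_16131 was at -0.48 in Columbia City replicate 5, against -7.20 to -5.00 in the other low fish. It was well above background in only 2 of 7 low fish. LSS_UF_16426 was at -1.15 in Skamania replicate 4, against 0.32 to 0.79. LSS_UF_24050 was at 1.90 in Skamania replicate 6, against 6.17 to 7.62.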

How the results depend on the processing

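The 1785 calls became 4661 with no scaling between arrays (370 higher, 4291 lower), 870 with array brightness and 263 with E1A_r60_a104 as a covariate, 3 choices made after seeing the data. They became 223 within Columbia City, 597 within Skamania, 17, 295 and 806 within slides 1, 2 and 3, fits with fewer fish, and 324 with the replicate number as a block. That block pairs different fish from different sites: of 6 pairs with the same number, 1 correlated by over 0.1 in its deviations (range -0.24 to 0.12), so the numbers were not taken as pairing. Leaving out each fish in turn gave between 1284 and 1785 calls. Under the other alternatives the count stayed within 1.5 times of 1785. The balance of directions moved with the filter on dim probes. With no filter 1334 probes were called higher and 866 lower. With a filter of at least 11 arrays these counts were 755 and 897. The interaction count was 0 under each alternative run, single fish left out included. It was not run without Columbia City replicate 1 or 6, which leaves 1 high fish there. With only 2 sites holding both groups, its pairwise form is the same test. Taken over all fish, the difference in array brightness was -0.51 in place of -0.68. Of 1624 values of 39 named probes under alternatives, 1435 kept their side of the threshold, 188 lost the call and 1 reversed: LSS_UF_24050 without Skamania replicate 6, at -1.07 (limma adjusted p = 0.0263), where leaving out single fish gave -1.07 to 0.41. LSS_UF_24050, not called in the main fit, also changed sign without a call, at -0.62 with no scaling. The sizes for dim probes depend on the background setting. The normexp alternative adds an offset of 50 units, which by itself shrinks log2 differences of dim probes. The parts of offset and background correction were not separated. With both, LSS_UF_15167 moved from 8.34 to 4.16 and LSS_UF_13540 from 7.57 to 4.02. LSS_UF_24063 moved from 3.10 to 1.19 and LSS_UF_20251 from -3.39 to -1.04. LSS_UF_14073 moved from 10.07 to 7.59, LSS_UF_21478 from 8.96 to 6.78, LSS_UF_16131 from 9.21 to 5.69 and LSS_UF_11366 from 8.23 to 4.70. The SEs given for these probes do not include such shifts.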

Other observations

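Called probes made up different shares of the summed signal of an array, a description of probes chosen on these values. The 858 higher probes held 8.11% to 12.3% in high fish, 2.68% to 3.49% in low fish and 2.95% to 6.42% in the Longview fish between. The 927 lower probes held 4.43% to 9.05% in high fish, 16.7% to 19.4% in low fish and 13.0% to 17.1% in the fish between. LSS_UF_10838 alone held 0.24% to 0.47% in high fish.

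The dimmest probes tested stood apart in the share called higher. Of 225 tested probes whose mean signal was under 16 units, 46 were called higher (20.4%) and 5 lower (2.22%), with a median log2 difference of 0.34 after scaling and -0.34 before it. The negative control probe, which measures no fish transcript, differed by 0.01 before scaling and 0.70 after it. Probes this dim can also pass the filter through the fish of 1 group alone, high or low. The part of scaling and filter in these calls was not tested. In the other 5 brightness classes 7.23% to 8.19% were called higher, beside 7.77% of all probes. Of the 928 brightest probes, 76 were called higher (8.19%) and 140 lower (15.1%). Taking both directions, 22.7% of the dimmest and 23.3% of the brightest class were called.

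Some probes share an assembly group. Of 369 groups with 2 or more tested probes, 878 probes in all, 108 held a called probe. In 24 groups 2 or more probes were called, and in 20 of these the calls had 1 direction. A group has several probes that may be called, so these counts cannot be set against the 16.2% of single probes called. Nothing is read from them. LSS_UF_14073, with a difference of 10.07, had 3 tested partners in its group: LSS_UF_15907, LSS_UF_15906 and LSS_UF_22839 differed by 0.63, 0.09 and -0.55 and were not called.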
